A study of Mus musculus with 11 samples.

Results

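The SLC2 genes encode membrane carriers of hexoses and related polyols, and 9 of them (Slc2a1, Slc2a3, Slc2a4, Slc2a5, Slc2a6, Slc2a8, Slc2a10, Slc2a12 and Slc2a13) are described here in the inguinal fat pad of mice, white fat under the skin. They were chosen by name. Slc2a5 was put on the list for its reads in knockout fat with and without rosiglitazone, so its levels are a description and carry no test wherever those libraries enter. The transcriptome held 52282 genes with a listed transcript, of which 26960 passed a filter on low counts and were tested. The filter kept 9 of the 9 SLC2 genes, and kept Slc2a5 only through the 2 knockout libraries on diet alone. The annotation has 3 further SLC2 genes, Slc2a2, Slc2a7 and Slc2a9, which are not on the list.

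All mice were C57BL6/J, carried floxed alleles of Raptor (gene Rptor, a subunit that the growth-regulating kinase complex mTORC1 needs), and ate high-fat food for 8 weeks up to an age of 16 weeks. In KO mice a Cre recombinase driven by the adiponectin promoter deleted Raptor in adipocytes, which leaves the gene intact in the other cells of the tissue, and WT mice were floxed littermates. Rosiglitazone, an agonist of the nuclear receptor PPARG, was given in the food at a daily 30 mg per kg. The groups held 3 KO libraries with rosiglitazone, 2 KO libraries on diet alone, 3 WT libraries with rosiglitazone and 3 WT libraries on diet alone. The titles of all 6 WT libraries name the other treatment than their treatment characteristic. WT groups follow the characteristic here, and directions that depend on it are named as such. Nothing in the labels says that each library is another mouse, so p-values speak of the spread among these libraries and it may be technical.

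GLUT proteins let sugars cross a membrane down their gradient, each with its own preferences and place in the cell. In adipocytes GLUT4, the product of Slc2a4, waits in vesicles and moves to the surface when insulin acts, while GLUT1, the product of Slc2a1, sits at the surface and serves basal glucose uptake. GLUT5, the product of Slc2a5, carries fructose and is best known from the small intestine. The other members are GLUT3 (Slc2a3, high-affinity glucose uptake, typical of neurons), GLUT6 (Slc2a6) and GLUT8 (Slc2a8), which sit mainly on membranes inside the cell, GLUT10 (Slc2a10), GLUT12 (Slc2a12) and the proton-coupled myo-inositol carrier HMIT (Slc2a13).

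Libraries held 13035346 to 40925952 estimated reads. Rptor, the targeted gene, lay at 82.4 to 91.7 CPM in KO with rosiglitazone and at 56.5 and 69.6 CPM in KO on diet, against 110 to 126 CPM in WT with rosiglitazone and 73.9 to 92.0 CPM in WT on diet. CPM are counts scaled to a common library total. Averaged over treatments, Rptor was lower in KO (log2 fold change -0.41 ± 0.11 SE, adjusted p = 0.0403, edgeR's quasi-likelihood test); the labels do not name the deleted exons, and reads from undeleted exons and from other cells are counted too. The tissue was recognisable by its markers: 10 genes of mature adipocytes summed to 1990 to 6470 CPM in the 5 KO libraries and to 7780 to 26300 CPM in the 6 WT libraries. None of the 10 was at 0. Macrophage markers summed to 1040 to 3190 CPM in KO and 545 to 1160 CPM in WT. Reads on 10 skeletal muscle markers were 1.24% of the total for replicate 2 of KO with rosiglitazone, 0.468% and 0.217% for replicates 3 and 2 of WT with rosiglitazone, 0.511% for replicate 2 of WT on diet, and at most 0.0265% for the others. Summed B-cell markers were 19.1 to 25.7 CPM in KO on diet replicate 1, WT with rosiglitazone replicate 2 and WT on diet replicate 1, and 129 to 776 CPM elsewhere.

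The fructose transporter Slc2a5 was read in fat of KO mice on diet alone and hardly at all in the other 9 libraries. The gene lies at chr4:150119283-150144169 on the plus strand (GRCm38, ENSMUSG00000028976.10), between Gpr157 and Slc2a7. Its promoter, from 250 bases before to 50 after the start in RefSeq on GRCm38.p6 (chr4:150119094-150119393, plus strand), is printed because its reads set KO on diet apart from the other groups, and that of Slc2a13 (chr15:91573212-91573511, minus strand) because it is the member that separates the genotypes. Capitals mark GC boxes (GGGCGG, or CCGCCC where it reads on the other strand):
Slc2a5: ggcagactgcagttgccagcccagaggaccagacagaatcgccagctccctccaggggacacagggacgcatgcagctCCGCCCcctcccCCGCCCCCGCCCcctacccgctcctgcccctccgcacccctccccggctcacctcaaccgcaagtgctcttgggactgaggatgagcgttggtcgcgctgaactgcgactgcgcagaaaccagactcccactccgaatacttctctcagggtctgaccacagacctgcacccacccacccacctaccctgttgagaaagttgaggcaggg
Slc2a13: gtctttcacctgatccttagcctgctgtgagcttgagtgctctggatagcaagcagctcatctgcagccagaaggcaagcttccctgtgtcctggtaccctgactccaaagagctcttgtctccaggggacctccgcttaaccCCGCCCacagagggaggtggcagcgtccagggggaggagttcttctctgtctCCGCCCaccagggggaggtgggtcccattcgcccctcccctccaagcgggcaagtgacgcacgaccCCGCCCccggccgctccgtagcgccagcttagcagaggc
Each of these promoters held 3 GC boxes, and 35.7% of 32851 mouse promoters of this length held at least 1. The search on both strands also covered the E-box CACGTG, the direct repeat of AGGTCA with 1 base between its copies, TATAAA and CCAAT, which 7.15%, 0.0396%, 13.6% and 37.4% of promoters hold. None of these was among the letters of the 2 windows printed. RefSeq's table listed promoters for 7 of the 9 members. GC boxes were also found for Slc2a1, Slc2a6 and Slc2a10.

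Slc2a5 had 1, 1 and 0 reads in KO with rosiglitazone and 279 and 129 reads in KO on diet, against 0, 3 and 2 reads in WT with rosiglitazone and 1, 1 and 1 in WT on diet. In CPM that was 0.0623, 0.0753 and 0 in KO with rosiglitazone, 13.7 and 5.15 in KO on diet, at most 0.127 in WT with rosiglitazone and at most 0.0521 in WT on diet. Both KO libraries on diet stood far above every other library, and no other group exceeded 3 reads in a library. Because both WT groups were this low, the contrast with WT is the same whichever WT label is taken.

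**Figure D1:**
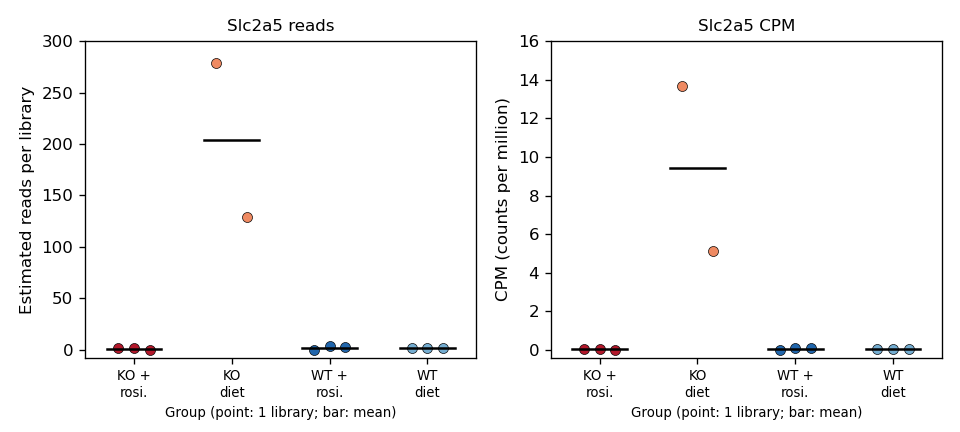
Estimated reads (left) and CPM (right) of Slc2a5 by group, where each point is 1 library and each bar a group mean. The KO libraries on diet hold 279 and 129 reads, and the other 9 libraries hold at most 3.

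Summed over libraries Slc2a5 had 2 reads in KO with rosiglitazone and 408 reads in KO on diet. As a description with no test, scaled to depth and taken as KO on diet over KO with rosiglitazone, the ratio was 233, with an exact 95% interval of 64.0 to 1930 that covers counting error only. The level in KO on diet was 190 times the level in WT with rosiglitazone (80.6 to 587) and 214 times that in WT on diet (72.6 to 1040). Between the WT groups both sides were at or under the floor of 3 reads in a library, so no fold is given. With limits set after its reads were seen, Slc2a5 was the 1 gene of 26960 with at least 100 reads in both KO libraries on diet and at most 3 in each other library.

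The reads fell on transcripts that belong to Slc2a5. Of its 3366 distinct words of 31 bases, 100% occur in transcripts of no other gene, and no annotated gene overlaps it. The coding transcript took 186.8 and 68.4 reads in the KO libraries on diet, which is 67.0% and 53.0% of the gene's reads, and retained-intron and noncoding transcripts took the rest. The neighbour Gpr157, an orphan receptor gene, had 330 and 681 reads in the same libraries and 430 to 820 reads in the other 9, and Slc2a7 had 0 reads in every library. Relative to 1000 CPM of mature adipocyte markers, Slc2a5 stood at 2.12 and 2.58 CPM in KO on diet, where the marker sums were 6470 and 1990 CPM. The 2 libraries were thus closer on this scale than in CPM. This does not single out adipocytes, since other marker sums were also higher in replicate 1 of KO on diet than in replicate 2. Macrophage markers summed to 3190 and 1040 CPM there, and markers of adipocyte progenitors to 1900 and 811 CPM. Which cells held the Slc2a5 reads was not tested.

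Genes with the most similar pattern over the 11 libraries were, by Pearson's r of log2(CPM + 1) among 15102 genes, Ppp1r3b (0.939), Cxcl5 (0.936), Acly (0.936), Adcy10 (0.912) and Rorb (0.912). These r are descriptions, since the libraries share groups and the genes were picked for them. Ppp1r3b, a subunit that directs protein phosphatase 1 to glycogen, had 85.8 and 32.2 CPM in KO on diet and 7.87 to 19.4 CPM elsewhere. Acly, ATP citrate lyase, which makes acetyl-CoA for lipid synthesis, had 855 and 369 CPM in KO on diet and 102 to 208 CPM elsewhere. Cxcl5, a neutrophil-attracting chemokine, had 6.4 and 2.08 CPM in KO on diet and 0.426 to 1.27 CPM elsewhere. All 3 had reads in every library, whereas Slc2a5 had 0 reads in 2 of them.

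**Figure D2:**
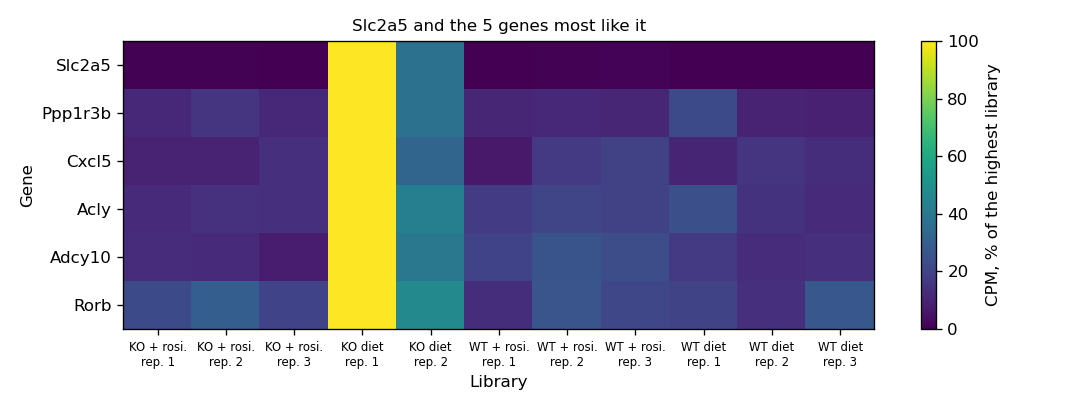
CPM of Slc2a5 and of the 5 genes with the highest r to it, as a percent of each gene's highest library, for 11 libraries from KO with rosiglitazone (left) to WT on diet (right). Each gene peaks in KO on diet replicate 1, followed by KO on diet replicate 2.

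Listed genes of fructose and polyol metabolism gave no call for rosiglitazone in KO fat. Khk, ketohexokinase, which phosphorylates fructose, had 7.23, 6.17 and 4.23 CPM in KO with rosiglitazone and 4.23 and 4.39 CPM in KO on diet, against 7.04, 7.68 and 8.05 CPM in WT with rosiglitazone and 5.34, 4.52 and 5.27 CPM in WT on diet. Of 8 listed genes that were tested, 0 changed with rosiglitazone in KO by edgeR's quasi-likelihood test, DESeq2 or limma-voom, which called 0.0148%, 1.32% and 0.0% of all tested genes. At an unadjusted p of 0.05, 0 of the 8 passed, beside 8.36% of all tested genes. Between KO and WT with rosiglitazone edgeR called 1 of 8, Glyctk, glycerate kinase, lower in KO (log2 fold change -1.87 ± 0.43 SE, adjusted p = 0.019), beside 15.0% of all tested genes. DESeq2 called 2 lower there, beside 22.0%, and limma-voom 1 higher and 4 lower, beside 34.4%. Among 11 listed regulators of glucose response, Mlxipl, which encodes the carbohydrate-responsive factor ChREBP, had 25.1, 41.2 and 27.2 CPM in KO with rosiglitazone and 171 and 68.0 CPM in KO on diet, against 61.6, 78.8 and 71.0 CPM in WT with rosiglitazone and 64.8, 40.4 and 36.1 CPM in WT on diet. Its value for rosiglitazone in KO was -1.94 ± 0.39 (SE, log2) and missed the threshold (adjusted p = 0.169, edgeR), as did the interaction at -2.52 ± 0.52 (adjusted p = 0.125). DESeq2 called Mlxipl lower in both, the 1 call among the 11 in each, beside 1.32% and 2.2% of all tested genes, and limma-voom called 0 of the 11 in either.

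Slc2a4 gave the most SLC2 transcripts per length in every group. Its mean TPM, which is per transcript length, was 25.8 ± 20.5 in KO with rosiglitazone (SD, n = 3), 51.9 ± 46.8 in KO on diet (n = 2), 146 ± 19.6 in WT with rosiglitazone (n = 3) and 61.5 ± 28.4 in WT on diet (n = 3). Its range cleared that of the next member in 3 groups and overlapped Slc2a1 in KO with rosiglitazone. Slc2a4 made up 29.4%, 67.5% and 45.5% of the 9 genes' summed TPM in KO with rosiglitazone and 66.3% and 32.0% in KO on diet, against 79.0%, 82.6% and 80.9% in WT with rosiglitazone and 70.1%, 57.8% and 47.4% in WT on diet. The summed TPM itself ran from 22.6 to 214 over the libraries. Slc2a5 was second by mean TPM in KO on diet, at 10.1 ± 6.21 TPM (n = 2), with a range that overlapped the 8.66 ± 4.09 TPM of Slc2a3, and last in the other 3 groups. It supplied 11.3% and 9.67% of the summed TPM in KO on diet and at most 0.176% elsewhere. Slc2a1, Slc2a3 and Slc2a8 formed the middle of the order with overlapping ranges, and Slc2a10 and Slc2a12 were low throughout, with means of 0.59 to 2.23 TPM.

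**Figure D3:**
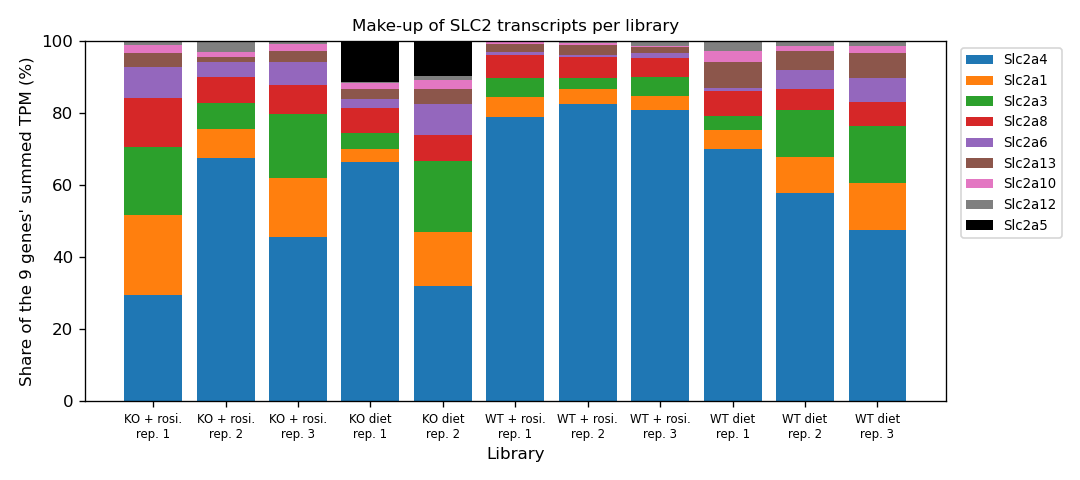
Share of each SLC2 gene in the 9 genes' summed TPM (percent, vertical axis) for each of 11 libraries, KO with rosiglitazone on the left and WT on diet on the right. Slc2a4 takes 29.4% to 82.6%, and Slc2a5, in black, is visible in the 2 KO libraries on diet.

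Between KO and WT mice on rosiglitazone, the insulin-responsive transporter Slc2a4 was 3.99-fold lower in KO. It had 34.1, 120 and 45.8 CPM in KO with rosiglitazone, against 253, 262 and 282 CPM in WT with rosiglitazone. The groups did not overlap, and KO replicate 2, the library richest in muscle markers, was the highest of the KO libraries. Slc2a4 is also a gene of skeletal muscle. KO on diet replicate 1 was higher still, at 131 CPM with 0.00912% muscle reads. Brown and beige adipocyte markers summed to 125, 337 and 118 CPM in KO with rosiglitazone and 403 and 78.6 CPM in KO on diet. In WT they summed to 234 to 506 CPM with rosiglitazone and 17.7 to 68.4 CPM on diet. The part of either marker set was not tested. The log2 fold change of Slc2a4 was -2.00 ± 0.59 (SE, n = 3 each, adjusted p = 0.0479, edgeR's quasi-likelihood test). It was -2.66 (adjusted p = 0.0298) without KO with rosiglitazone replicate 2. Slc2a4 was the 1 gene called among the 8 members other than Slc2a5, where 15.0% of all tested genes were called. DESeq2 called 3 of the 8 (Slc2a4, Slc2a6 and Slc2a13), beside 22.0% of all genes, and limma-voom 4 (with Slc2a8), beside 34.4%. At an unadjusted p of 0.05, 3 of the 8 passed, beside 31.3% of all genes. The call was lost without KO with rosiglitazone replicate 1 (adjusted p = 0.149) or 3 (0.152), WT with rosiglitazone replicate 1 (0.0927), 2 (0.117) or 3 (0.105), or WT on diet replicate 2 (0.0671). It was also lost with RLE scaling (0.0504), no filter (0.0817), length offsets (0.073) and with WT grouped by titles, where the log2 fold change was -0.61 (adjusted p = 0.662).

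The other members between these groups were called neither higher nor lower by edgeR, while the 2 other tools made the calls given above. Slc2a13 had 7.36, 7.38 and 5.6 CPM in KO and 15.2, 18.1 and 16.9 CPM in WT (log2 fold change -1.30 ± 0.40 SE, adjusted p = 0.0526). Slc2a6 had 9.35, 8.96 and 8.15 CPM in KO and 4.44, 2.21 and 4.25 CPM in WT (1.28 ± 0.47, adjusted p = 0.0937). GLUT6 is known from macrophages, and the summed macrophage markers were 2220 to 2740 CPM in KO and 545 to 683 CPM in WT with rosiglitazone. Within the diet groups the 2 did not move together. In KO on diet, marker sums of 3190 and 1040 CPM stood beside 5.76 and 10.3 CPM of Slc2a6. In WT on diet, sums of 1160, 818 and 1150 CPM stood beside 2.52, 9.48 and 9.49 CPM. The part of macrophages in the Slc2a6 values was not tested. Slc2a8 had 15.5, 14.1 and 9.21 CPM in KO and 22.6, 20.4 and 20.2 CPM in WT (-0.70 ± 0.32, adjusted p = 0.164). Groups of 4 of the 8 members did not overlap, as was true of 48.2% of all tested genes. The median log2 fold change of the 8 was -0.18, beside 0.05 over all tested genes.

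**Figure D4:**
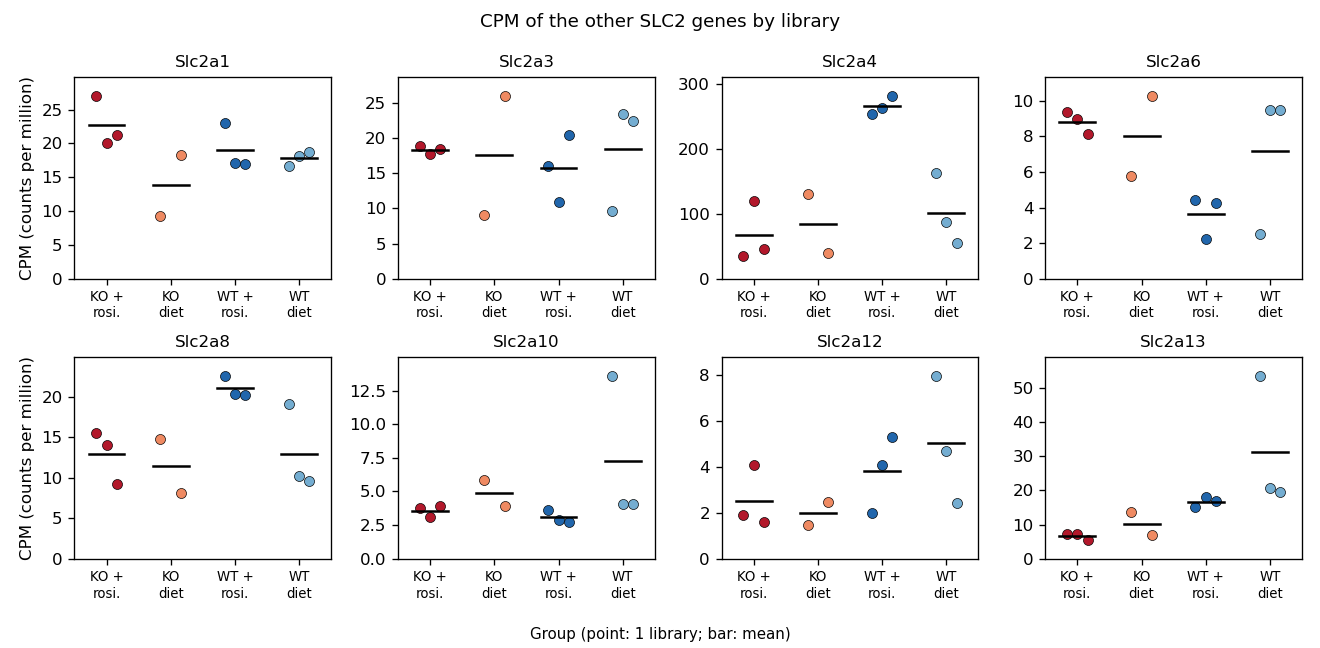
CPM of the 8 SLC2 genes other than Slc2a5 by group, with 1 point per library and a bar at the mean. Slc2a4 lies at no more than 131 CPM in any KO library and between 253 and 282 CPM in WT with rosiglitazone, and each KO library is below each WT library for Slc2a13.

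Slc2a13, the myo-inositol carrier, separated the genotypes whatever the treatment. The gene lies at chr15:91267696-91573261 on the minus strand (GRCm38, ENSMUSG00000036298.10). The 3 KO libraries with rosiglitazone given above were joined by 13.7 and 6.87 CPM in KO on diet, and the 3 WT libraries with rosiglitazone by 53.6, 20.8 and 19.7 CPM in WT on diet. The highest of 5 KO libraries, at 13.7 CPM, was below the lowest of 6 WT libraries, at 15.2 CPM. Slc2a13 was the 1 member of 8 with this separation, which 5.51% of all tested genes showed. Averaged over both treatments, a contrast added after seeing the data that does not depend on the WT treatment labels, Slc2a13 was 2.75-fold lower in KO (log2 fold change -1.46 ± 0.30 SE, 5 KO and 6 WT libraries, adjusted p = 0.0138, edgeR). It was the 1 member called of 8, where 12.8% of all tested genes were called. DESeq2 called 2, Slc2a13 and Slc2a4, beside 17.9% of all genes, limma-voom called 1, Slc2a13, beside 9.43%, and 3 passed at an unadjusted p of 0.05, beside 29.2%. Without KO on diet replicate 2 the adjusted p was 0.0515 at -1.25, and with skeletal muscle markers as a covariate it was 0.0531.

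Mature adipocyte markers moved with genotype in the same samples as Slc2a4 and Slc2a13. Of the 10 markers, edgeR called 10 lower in KO averaged over treatments, beside 12.8% of all tested genes. Between KO and WT with rosiglitazone it called 9 lower in KO, beside 15.0%. DESeq2 and limma-voom each called 10 lower there, beside 22.0% and 34.4%. The median log2 fold changes were -2.26 averaged over treatments and -2.83 with rosiglitazone. In bulk tissue, fewer adipocytes and less RNA of a gene per adipocyte cannot be told apart. With the marker sum as a covariate, Slc2a13 stood at 0.15 (adjusted p = 0.777) averaged over treatments and Slc2a4 at 0.25 (adjusted p = 0.914) with rosiglitazone, and since the sums of KO and WT libraries do not overlap, the covariate and the genotype cannot be told apart. Per 1000 CPM of these markers, Slc2a13 was 1.71, 1.60 and 1.18 CPM in KO with rosiglitazone and 2.12 and 3.45 CPM in KO on diet, against 0.671, 0.688 and 0.711 CPM in WT with rosiglitazone and 2.17, 2.23 and 2.53 CPM in WT on diet. On that scale Slc2a4 was 7.93, 26.0 and 9.66 CPM in KO with rosiglitazone and 20.2 and 19.4 CPM in KO on diet, against 11.2, 9.95 and 11.8 CPM in WT with rosiglitazone and 6.58, 9.32 and 7.10 CPM in WT on diet. On this scale the groups of Slc2a4 overlapped between KO and WT with rosiglitazone, and each KO value of Slc2a13 with rosiglitazone was above each WT value. No test was made on it.

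Averaged over treatments the other 7 members were not called by edgeR, and DESeq2 called Slc2a4 lower (adjusted p = 0.0435). Slc2a4 had a log2 fold change of -1.13 ± 0.44 (SE, adjusted p = 0.12, edgeR), Slc2a12 of -0.97 ± 0.40 (adjusted p = 0.14) and Slc2a6 of 0.73 ± 0.34 (adjusted p = 0.192). Slc2a12, an insulin-responsive glucose carrier in some muscle and fat cells, had 1.48 to 4.07 CPM in KO and 1.99 to 7.98 CPM in WT, and shares 377 of its 4204 words of 31 bases with other genes. Slc2a1 and Slc2a3 were the members nearest to no difference, at -0.05 ± 0.18 and 0.07 ± 0.31. The median of the 8 was -0.31, beside 0.05 over all tested genes.

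On diet alone, KO and WT fat differed in none of the 8 members by edgeR's adjusted p, where 0.137% of all tested genes were called. DESeq2 called 1, Slc2a13 (adjusted p = 0.0263), beside 2.92% of all genes, and limma-voom called 0, beside 0.0111%. At an unadjusted p of 0.05, 2 passed, beside 10.5% of all genes. Those were Slc2a13 (-1.61 ± 0.46 SE on the log2 scale, adjusted p = 0.228) and Slc2a12 (-1.35 ± 0.60, adjusted p = 0.474). Slc2a4 had 131 and 38.7 CPM in KO on diet against 163, 87.1 and 55.2 CPM in WT on diet, with overlapping groups. Groups of 1 of the 8 members, Slc2a13, did not overlap, as was true of 20.8% of all tested genes. These values follow the treatment characteristic. With WT grouped by titles, the WT libraries on diet are those at 253, 262 and 282 CPM of Slc2a4, above both KO libraries on diet. By edgeR 0 of the 8 members were called in that grouping, with 2886 calls over all genes in place of 37.

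Rosiglitazone in KO fat left the 8 members without a call. By edgeR's adjusted p 0 of 8 passed, where 0.0148% of all tested genes did. DESeq2 called 0, beside 1.32% of all genes, and limma-voom called 0, beside 0%. At an unadjusted p of 0.05, 1 passed, beside 8.36% of all genes. That was the basal glucose transporter Slc2a1, with 27.1, 20.0 and 21.3 CPM in KO with rosiglitazone and 9.31 and 18.3 CPM in KO on diet. The groups did not overlap and the lowest library was KO on diet replicate 1 (log2 fold change 0.72 ± 0.28 SE, adjusted p = 0.522). Without that library the value was 0.32, and without replicate 2 it was 1.29. Slc2a10 was the other member without overlap, at 3.09 to 3.92 CPM in KO with rosiglitazone and 5.86 and 3.95 CPM in KO on diet (-0.45 ± 0.49, adjusted p = 0.896), and 21.3% of all tested genes did not overlap here. Slc2a4 was at -0.35 ± 0.63 (adjusted p = 0.956). Fits of the 8 ran from -0.60 to 0.72.

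Rosiglitazone in WT fat, under the treatment characteristic, also gave no call among the 8 members by edgeR, where 2.14% of all tested genes were called. DESeq2 called 0, beside 7.81% of all genes, limma-voom called 3 (Slc2a4, Slc2a6 and Slc2a8), beside 27.4%, and 3 passed at an unadjusted p of 0.05, beside 17.4% of all genes. Slc2a4 had the CPM given above, all 3 WT libraries with rosiglitazone lying over the 163 CPM of the highest WT library on diet (log2 fold change 1.38 ± 0.58 SE, adjusted p = 0.249, edgeR). Slc2a10 had 3.66, 2.89 and 2.73 CPM in WT with rosiglitazone and 13.6, 4.08 and 4.07 CPM in WT on diet (-1.23 ± 0.44, adjusted p = 0.189). Slc2a13 stood at -0.91 ± 0.39 (adjusted p = 0.261). WT on diet replicate 1 carried the highest values of both genes, and without it they stood at -0.39 and -0.27. Groups of 4 of the 8 members did not overlap (Slc2a4, Slc2a8, Slc2a10 and Slc2a13), as was true of 23.8% of all tested genes. The signs of these values turn round where WT libraries are grouped by titles.

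The drug response was compared between genotypes by the interaction term. Of the 8 members 0 passed by edgeR, DESeq2 or limma-voom and 0 at an unadjusted p of 0.05, where 0.104% of all tested genes passed by edgeR, 2.2% by DESeq2, 0.152% by limma-voom and 10.5% unadjusted. The value farthest from 0 was that of Slc2a4, at -1.74 ± 0.85 (SE, log2, adjusted p = 0.512), and the sign of this value turns round (1.03) with WT grouped by titles.

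**Figure D5:**
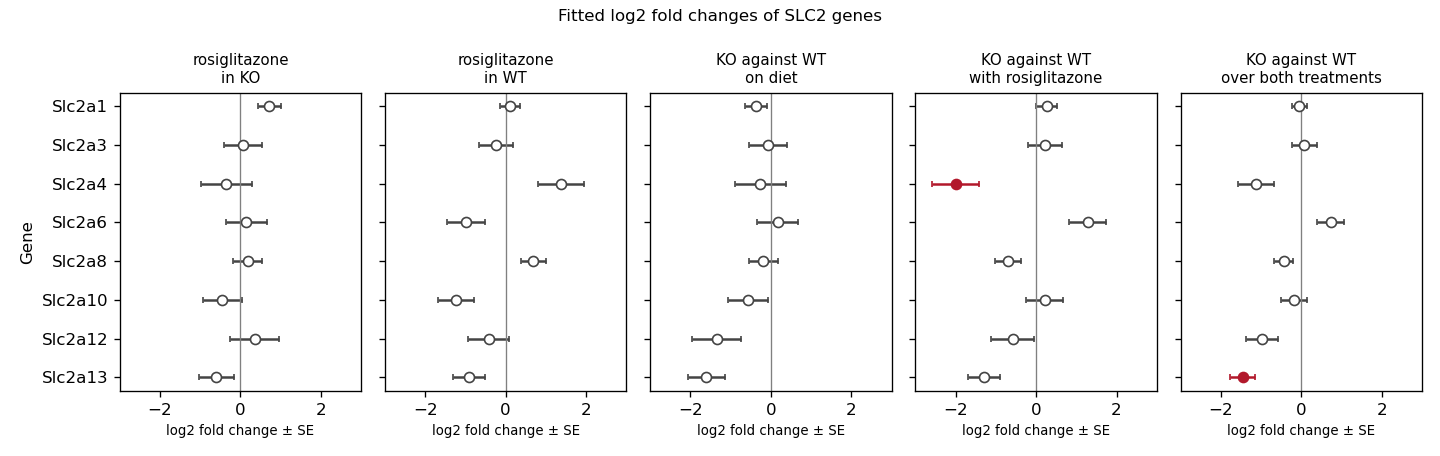
Fitted log2 fold changes (horizontal axis, bars are SE) of the 8 SLC2 genes other than Slc2a5 in 5 contrasts, with filled red points where the adjusted p is under 0.05. Slc2a4 at -2.00 for KO against WT with rosiglitazone and Slc2a13 at -1.46 over both treatments are the filled points.

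Of 18 listed genes that store and move GLUT4, 8 fell and 1 rose between KO and WT with rosiglitazone by edgeR, beside 15.0% of all tested genes called in either direction. DESeq2 called 3 higher and 9 lower, beside 22.0%, and limma-voom 3 higher and 10 lower, beside 34.4%. The median log2 fold change of the 18 was -0.62, beside 0.05 over all tested genes. Akt2, the kinase through which insulin mobilises GLUT4, had 135, 181 and 138 CPM in KO and 580, 727 and 572 CPM in WT with rosiglitazone (-2.05 ± 0.30 SE, adjusted p = 0.00334, edgeR). Rhoq, the small GTPase TC10, was also lower (-1.62 ± 0.36, adjusted p = 0.0171), and Stxbp3, a syntaxin-binding protein of the docking step, was higher (0.75 ± 0.14, adjusted p = 0.00723). Averaged over treatments 6 fell and 1 rose by edgeR, beside 12.8% of all tested genes, and DESeq2 called 2 higher and 10 lower, beside 17.9%. Sort1, which sorts GLUT4 into storage vesicles, was among those that fell (-1.90 ± 0.40, adjusted p = 0.0141, edgeR). On diet alone 0 passed by edgeR's adjusted p or limma-voom, beside 0.137% and 0.0111% of all tested genes. DESeq2 called 1 lower there, beside 2.92%. At an unadjusted p of 0.05, 1 was higher and 5 lower, beside 10.5% of all tested genes in either direction. With rosiglitazone in WT 1 rose by edgeR, beside 2.14% of all tested genes: Tbc1d4, the Rab regulator AS160 that holds GLUT4 inside the cell (0.77 ± 0.16, adjusted p = 0.0436), whose direction turns when WT is grouped by titles. DESeq2 called 3 higher there, beside 7.81%, and limma-voom 9 higher and 1 lower, beside 27.4%. With rosiglitazone in KO 0 passed by edgeR, DESeq2 or limma-voom, beside 0.0148%, 1.32% and 0.0% of all tested genes. Unadjusted, 0 passed there too, beside 8.36%. The adipocyte marker sums given above moved with the genotype here too.

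Glucose entering a cell is phosphorylated by hexokinases, and 5 of 7 listed kinase genes were tested. Hk3, the hexokinase of myeloid cells, was 76.6, 45.4 and 54.1 CPM in KO and 4.83, 3.8 and 4.76 CPM in WT with rosiglitazone (3.72 ± 0.44 SE on the log2 scale, adjusted p = 0.00136, edgeR), the 1 call among the 5, where 15.0% of all tested genes were called. Of the 5, DESeq2 called 1 higher and 1 lower, beside 22.0%, and limma-voom 2 higher and 1 lower, beside 34.4%. Of 10 macrophage markers 8 were higher in the same comparison by edgeR, beside 15.0% of all tested genes. The part of macrophages in the Hk3 value was not tested. Klf15, a transcription factor that activates Slc2a4, was 12.7, 19.7 and 16.7 CPM in KO and 90.6, 75.7 and 96.8 CPM in WT with rosiglitazone (-2.42 ± 0.32, adjusted p = 0.00192). It and Mlxipl (-1.18 ± 0.35, adjusted p = 0.0499) were the 2 calls among 11 regulators by edgeR, both lower, a share near the 15.0% of all tested genes. DESeq2 called 3 lower, beside 22.0%, and limma-voom 1 higher and 4 lower, beside 34.4%. Among 9 tested sugar transporters outside the list of members, 1 rose and 1 fell, also a share near 15.0%. Slc5a3, a sodium-coupled myo-inositol carrier, was 140, 140 and 132 CPM in KO and 860, 867 and 773 CPM in WT with rosiglitazone (-2.60 ± 0.47, adjusted p = 0.00715, edgeR). The inositol carrier Slc2a13 also had lower values in KO there, but missed the threshold by edgeR (adjusted p = 0.0526). Averaged over treatments Slc5a3 was lower at -2.06 ± 0.35 (adjusted p = 0.0064). Slc45a3, a proton-coupled sugar carrier, was higher in KO than in WT with rosiglitazone (2.29 ± 0.40, adjusted p = 0.00663).

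For some members Salmon assigned the reads largely to transcripts annotated as making no protein, which limits what a gene's level says of the transporter. The split of reads among transcripts of a gene is itself an estimate. Coding transcripts took 8.46% to 30.0% of Slc2a3 reads (median 15.4%), with most reads on a retained-intron transcript, and 0% to 79.5% of Slc2a6 reads. The Slc2a6 share was unstable, at 79.5% and 9.11% in the 2 KO libraries on diet. Coding transcripts took 85.6% to 95.2% for Slc2a4, 74.9% to 98.3% for Slc2a13, 45.4% to 66.7% for Slc2a1 and 50.9% to 86.1% for Slc2a8. Slc2a4, Slc2a6 and Slc2a8 share none of their words of 31 bases with other genes, and Slc2a12 overlaps Tbpl1 on the opposite strand, so reads of these 2 genes may be mixed where strand was not used. Among the genes most like Slc2a4 over the 11 libraries, described in the same way as for Slc2a5, were Ppme1 (r = 0.982), Nipsnap2 (0.978), Sdhaf3 (0.978) and Isca1 (0.974).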

How the data were processed

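Libraries of fat RNA (Trizol) were built with Nextera XT, and no strand is named, per the labels' protocols. Per the submitters' processing notes the authors used Salmon; edgeR, mm10 and GRCm38 are named beside it, with no version in the sources used here. There is a deposited table for each library. Per transcript it gives an estimated count and, in another column, TPM, per the file headers. The deposited TPM is a level per effective length, and it sums to the same value in each library.

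The 132288 transcripts were matched to GENCODE M21 (GRCm38) without version numbers (99.7%); unmatched ones held 0.0985% to 0.144% of reads. Estimated counts and TPM were summed per gene, and the counts rounded. Groups follow the genotype and treatment characteristics. No 2 libraries of a group were alike within sampling noise. The test was edgeR's quasi-likelihood test (edgeR 4.0.16, R 4.3.3, limma 3.58.1, robust, TMM, default filter by group) in 1 fit over 11 libraries, with p-values adjusted by Benjamini and Hochberg over 26960 genes and a threshold of 0.05. It was tested on simulated counts. DESeq2 1.42.0, limma-voom, RLE scaling, 2 other filters, length offsets, TPM, fewer samples, the replicate number as a block, WT titles, muscle and adipocyte covariates and leave-outs were alternatives.

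The members, gene lists and tests were chosen with earlier results of these data known. Named were the 9 members in every contrast, up to 4 called genes of each list by p (up to 2 as values where none passed), and the 5 genes with the highest r to Slc2a5 and to Slc2a4 among genes with average log2 CPM of at least 0. Not every gene picked this way is reported here. Khk, Gpr157, Slc2a7 and Slc2a12's neighbour Tbpl1 are named as context. Promoter sequences are from RefSeq. Intervals and floors cover counting error only.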

Additional observations from a re-analysis of the deposited data

How the results depend on the processing

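Counts of called members (of 8, Slc2a5 left out) moved as follows, and the cause was not tested. For KO against WT with rosiglitazone, 1 was called in the main test, 0 with RLE scaling or no filter, 2 with a filter of 1 CPM in 3 libraries or with adipocyte markers as a covariate, 3 with DESeq2 or on log2(TPM + 1), and 4 with limma-voom or only the groups compared; leaving out 1 library gave 0 to 3. Averaged over treatments, 1 became 2 with DESeq2 and 0 with muscle markers as a covariate. With adipocyte markers as a covariate the 1 call was Slc2a3 in place of Slc2a13. Leaving out 1 library gave 0 to 2, with 0 without KO on diet replicate 2. For rosiglitazone in WT, 0 became 3 with limma-voom and 2 with adipocyte markers as a covariate (Slc2a10 and Slc2a13). Leaving out 1 library gave 0 to 2 there, with 2 (Slc2a6 and Slc2a8) without WT on diet replicate 1. For rosiglitazone in KO, 0 became 2 with adipocyte markers as a covariate (Slc2a1 and Slc2a13). On diet 0 became 1 with DESeq2 (Slc2a13) and 1 with that covariate (Slc2a3). The interaction stayed at 0 in 13 alternatives and 11 leave-outs.

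With adipocyte markers as a covariate, signs turned for Slc2a4 (0.25), Slc2a6 (-0.82) and Slc2a13 (0.52) in KO against WT with rosiglitazone and for Slc2a4 (0.75) and Slc2a13 (0.15) averaged over treatments. With WT grouped by titles they turned for rosiglitazone in WT (Slc2a4 -1.38, Slc2a10 1.23, Slc2a13 0.91) and for the interaction of Slc2a4 (1.03). Slc2a1 for rosiglitazone in KO was -0.07 on log2(TPM + 1).

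The replicate numbers do not pair the samples (correlations of deviations -0.527 to 0.701). With the replicate block, 1 member was called for KO against WT with rosiglitazone, Slc2a13 in place of Slc2a4 (-2.03, adjusted p = 0.0758; as with length offsets and with WT titles), and 1 averaged over treatments, Slc2a13; calls over all genes were 3444 in place of 4037 and 3178 in place of 3442.

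With 2 KO libraries on diet, leaving out 1 assumes that the other varies like the other groups. Calls over all genes ranged under the alternatives from 624 to 9275 for KO against WT with rosiglitazone (4037), 1415 to 4991 averaged over treatments (3442), 1 to 7383 for rosiglitazone in WT (578), 0 to 3091 on diet (37), 0 to 1290 for rosiglitazone in KO (4) and 1 to 755 for the interaction (28). Slc2a5 levels of 0 to 3 reads cannot be told apart at this depth.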

Other observations

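Of the SLC2 genes outside the list, Slc2a9, a urate and glucose carrier, had 122 to 305 reads in every library, and Slc2a2, the glucose carrier GLUT2 of liver and pancreas, had 5 to 49 reads. Slc2a2 had 23 and 49 reads in KO on diet against 13, 9 and 11 reads in WT on diet, without overlap between the groups (log2 fold change 1.55 ± 0.55 SE, adjusted p = 0.345, edgeR's quasi-likelihood test), and 20.8% of all tested genes did not overlap there. In KO with rosiglitazone it had 5, 14 and 19 reads.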
